A study of Mus musculus with 11 samples.

Results

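The late-numbered microRNAs of mouse feces are described here. They are the rows of a fecal miRNA count table named miR- with a number of 1000 or more, leaving out 5 rows of miR-3071 and miR-3074. They were chosen by name, with earlier results of these data known. They make up 89 of the 616 rows, or 16.4% of the 544 rows that carry a miRNA name. Beside them are 455 other named rows and 72 numbered rows without a miRNA name. Feces came from C57BL/6 mice in 3 phases: before dextran sulfate sodium (DSS, a polymer in the drinking water that injures the colon lining), after 5 days of 2.5% DSS, and on day 12, after 7 days without DSS. The phases hold 4, 3 and 4 small RNA libraries, named here by phase and column number (1, 3 and 4 on day 5). No genetic change is named in the labels, every group is of this strain, and the sources used here give neither age nor sex of the mice. The labels do not say which libraries share a mouse, and no untreated mice were sampled on day 5 or 12, so phase and sampling day cannot be told apart.

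A miRNA is cut from a hairpin transcript by Drosha and Dicer, and its bases 2 to 8, the seed, pair with target mRNAs. Numbers are given in order of entry into the miRNA catalogue, so low numbers include most of the deeply conserved and abundant families. High numbers come largely from later deep sequencing, and many belong to weakly expressed or lineage-specific entries whose processing as miRNAs is less well documented. Some lie inside other small RNAs such as small nucleolar RNAs (snoRNAs) and small Cajal body RNAs (scaRNAs), which guide the modification of ribosomal and spliceosomal RNA, and some resemble interspersed repeats.

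The mature sequences of the tested members and of related miR-3473 rows carry much of what follows. RefSeq (GRCm38.p6) held a mature sequence for 80 of the 89. The 8 below, with capitals marking the seed, are the tested members with a sequence other than miR-3473a, which is shown with its relatives further on.
miR-6538: cGCGGGCUccggggcggcg
miR-5126: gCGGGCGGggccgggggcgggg
miR-3470b: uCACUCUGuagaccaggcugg
miR-6240: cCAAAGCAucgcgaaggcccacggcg
miR-1839-5p: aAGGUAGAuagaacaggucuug
miR-1981-5p: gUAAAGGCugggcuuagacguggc
miR-3535: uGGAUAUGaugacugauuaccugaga
miR-5100: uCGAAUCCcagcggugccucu
The 80 sequences had 78 distinct seeds, so the name class is not a seed family. miR-6538 lies on the minus strand at chr12:26414970-26414988 in an intron of Rnf144a. miR-5126 lies on the plus strand at chr1:84695890-84695911, opposite an exon of Dner. miR-3470b lies on the plus strand at chr16:44013885-44013905, opposite an intron of Gramd1c, and miR-6240 on the plus strand at chr5:114851973-114851998 in no other annotated gene. These annotations are those of GENCODE vM21.

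The 4 rows below are shown because they share letters, and the capitals mark the 10-base core UGGAGAGAUG.
miR-3473a: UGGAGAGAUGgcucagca
miR-3473b: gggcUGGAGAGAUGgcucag
miR-3473e: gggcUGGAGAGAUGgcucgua
miR-3473f: caaauaggacUGGAGAGAUG
The core is the longest run common to these 4, the miR-3473 rows of highest count, so their holding it was set by its choice. No other of the 461 named rows with a sequence held it, including miR-3473g and miR-3473h-5p. miR-3473b and miR-3473e also share the seed GGCUGGA. Reads of such close copies could be split between rows by the counting or counted in several of them, so each row's own value is uncertain. The same may hold for miR-3470a and miR-3470b by their shared number, but miR-3470a had no sequence to compare. Some other pairs of rows in the table had almost equal totals. Such were miR-24-3p and miR-3074-5p (1376 and 1375 counts) and miR-9-5p and miR-9b-3p (4955 and 4946). How reads were assigned to rows was not tested.

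The late-numbered miRNAs were a small part of the fecal miRNA counts. They held 4702 counts over the 11 libraries, whose totals ran from 11749 to 40835 counts. Their median total count was 2, against 10 for the other named rows, and 34 of the 89 (38.2%) had 1 count in all, against 17.1% of the other named rows. Another 23 had 2 to 4 counts, 24 had 5 to 99 and 8 had 100 or more. The 64 members with under 10 counts held 147 counts together, and 39 were seen in 1 library only, so nothing can be said of their change at this depth. The most abundant member ranked 24 among all rows by total count. The 2 most abundant, miR-6538 and miR-5126, held 52.5% of the member counts summed over the libraries and the first 5 held 75.7%. The share of miR-6538 ran from 9.91% to 58.4% of the member counts of a library, and in before-DSS libraries 1, 3 and 4 miR-5126 had more counts than miR-6538.

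As a share of all counts, the late-numbered miRNAs made up 0.763%, 6.27%, 1.15% and 0.775% of before-DSS libraries 1 to 4. On day 5 they made up 1.10%, 0.763% and 0.877% of libraries 1, 3 and 4. On day 12 they made up 1.34%, 4.31%, 4.18% and 1.37% of libraries 1 to 4. Before-DSS library 2 and day 12 libraries 2 and 3 were high, and the phases overlapped. The mean shares with their SDs were 2.24% ± 2.69 (n = 4), 0.914% ± 0.173 (n = 3) and 2.80% ± 1.67 (n = 4), in the order of the phases. Without before-DSS library 2 the first mean was 0.896%. Without miR-6538 the means were 1.51%, 0.663% and 1.36%.

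**Figure D1:**
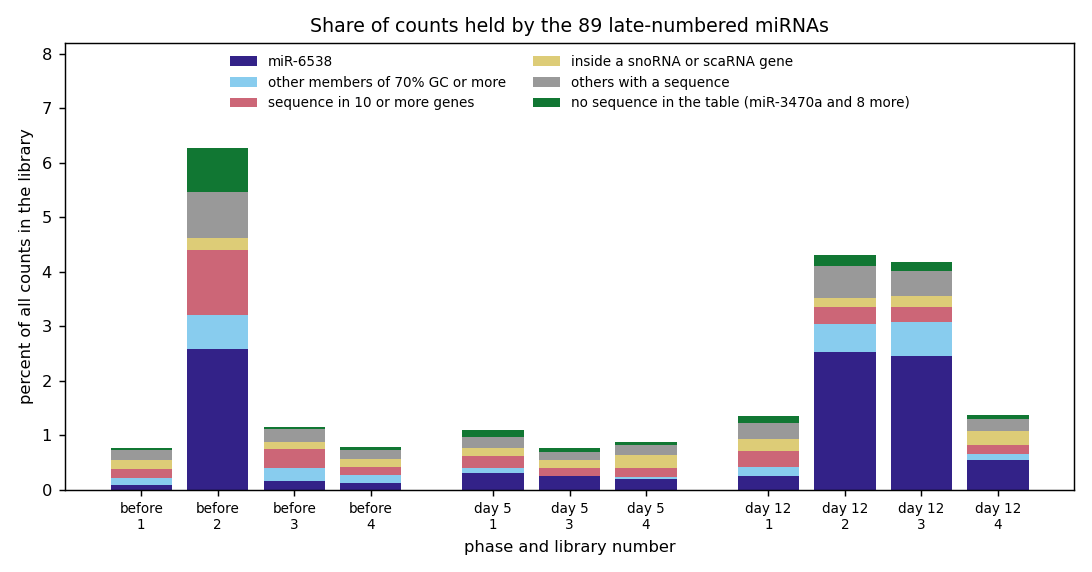
Percent of all counts held by the 89 late-numbered miRNAs in each library, stacked by sequence class, with miR-6538 drawn apart. Before-DSS library 2 reached 6.27% and day 12 libraries 2 and 3 reached 4.31% and 4.18%, while the other 8 libraries lay between 0.763% and 1.37%.

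A library held 31.3 ± 3.3 members with at least 1 count before DSS, 22 ± 3.6 on day 5 and 36.8 ± 2.5 on day 12 (SD, n = 4, 3 and 4). Depth differed between the phases, and at the smallest library total the expected numbers were 24.4, 20.6 and 26.9. With at least 3 counts they were 14, 10 and 17.75. Members with a count anywhere in the phase numbered 59, 35 and 68, and those with a count in every library of the phase 15, 12 and 15. Of all members, 9 were detected in every library. A read stood for 24.5 to 85.1 CPM (the count divided by its library's total in the table and multiplied to a common scale), and 3 counts for 73.5 to 255.3 CPM.

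Among other contents of the feces, only the leukocyte miRNAs lay apart between every pair of phases. The 6 leukocyte miRNAs fixed as markers summed to 0.00486% to 0.0215% of counts before DSS, where miR-155-5p, miR-223-5p and miR-142a-3p were at 0. They summed to 0.0964% to 0.247% on day 5 and 0.610% to 0.950% on day 12, with none at 0. The 8 intestinal epithelium miRNAs, none of them at 0 in any phase, summed to 12.2% to 22.02% before DSS, 5.92% to 18.1% on day 5 and 11.5% to 20.4% on day 12. The 2 of 3 red blood cell miRNAs in the table summed to 0.696% to 1.66%, 2.19% to 3.77% and 0.409% to 2.46%, and liver miR-122-5p to 0.141% to 0.306%, 0.0504% to 0.119% and 0.0171% to 0.133%. Their part in the results below was not tested, and in feces a smaller number of shed cells cannot be told apart from less RNA per cell.

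By sequence, the late-numbered miRNAs were richer in G and C than the rest. Their median GC content was 55.3% against 45.8% for the 381 other named rows with a sequence, and 78.1% against 40.8% when each row was weighted by its counts. miR-5126 consists of G and C only (100% GC), and miR-6538 has 94.7% GC. Of the 80, 6 had 70% GC or more, as did 7 of the 381 others. The other 4 of the 6, miR-7648-5p, miR-3077-5p, miR-1895 and miR-1247-5p, had 1 count each. The median length was 22 bases in both sets.

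**Figure D2:**
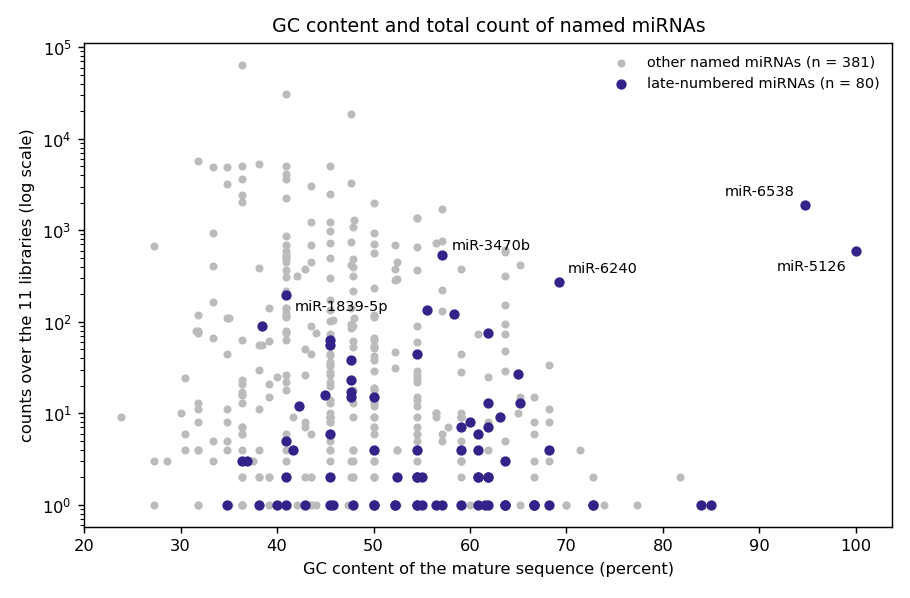
GC content of the mature sequence in percent against the count summed over the 11 libraries on a log scale, for 80 late-numbered miRNAs (dark points) and 381 other named miRNAs (grey points). miR-6538, at 94.7% GC with 1880 counts, and miR-5126, at 100% GC with 589 counts, stand apart at the right.

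A second feature was how often the letters occurred in the transcriptome. miR-3470b was found exactly in transcripts of 546 genes in sense and 1016 in either direction. miR-3473b was found in 343 genes in sense, miR-3473a in 146 and miR-3471 in 34. As background, the letters of miR-3470b are part of the B1 consensus and those of miR-3473b part of the B2 consensus, the most common short interspersed repeats of rodents. No repeat annotation was used here. These 4 members, 5.00% of the 80, held 694 counts, or 15.9% of the member counts with a sequence, and none of the 381 other named rows matched 10 or more genes (at most 7). The submitters state that repeats were removed before counting.

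A further feature was overlap with other small RNAs. The mature sequence was found exactly in a small RNA transcript of GENCODE vM21 for 15 of the 80 (18.8%), against 4 of the 381 others (1.05%). Near matches and small RNAs outside that annotation were not searched, so further members may overlap with other small RNAs. For 12 of the 15 the miRNA lies inside a snoRNA or scaRNA gene on the same strand. miR-1839-5p lies in the scaRNA gene Mir1839 (chr7:81529919-81529940), and miR-3535 in the snoRNA gene Gm24148 within Ncl, the gene of nucleolin (chr1:86352062-86352087). Both arms of miR-3068 lie in the snoRNA gene Mir3068, miR-1843a in Scarna3b and miR-1843b in Scarna3a, miR-5121 in Snord33 within Rpl13a, and miR-1291 in Snora34 within Kansl2. The other 3 of the 15 were miR-3470b and miR-3473b, found in miscellaneous RNAs, and miR-6481, found in the mitochondrial transfer RNA mt-Tf. The submitters state that snoRNA and transfer RNA reads were removed before counting, so the rows count what that step left. Of the 80, 46 lie in an intron of a protein-coding gene on the same strand.

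The share of each sequence class is given by phase, with classes that were formed after the values had been seen. The 12 members inside snoRNA or scaRNA genes held 0.164% ± 0.049 of counts before DSS (SD, n = 4), 0.175% ± 0.062 on day 5 (n = 3) and 0.204% ± 0.037 on day 12 (n = 4). The 6 members of 70% GC or more held 1.02% ± 1.46, 0.295% ± 0.090 and 1.79% ± 1.46. The 4 found in 10 or more genes held 0.460% ± 0.487, 0.174% ± 0.045 and 0.265% ± 0.066. The 58 other members with a sequence held 0.357% ± 0.317, 0.186% ± 0.029 and 0.397% ± 0.169. The 9 without a sequence held 0.234% ± 0.388, 0.084% ± 0.039 and 0.141% ± 0.0535. Without before-DSS library 2 the before-DSS values of the first 3 classes were 0.141% ± 0.017, 0.296% ± 0.095 and 0.220% ± 0.108 (SD, n = 3). Those of the members with another sequence and without one were 0.199% ± 0.037 and 0.040% ± 0.006. The day 12 mean then lay above the before-DSS mean by more than the SD of each phase for the snoRNA and scaRNA class. The same was so for the class of 70% GC or more, for the other members with a sequence and for those without one. The class found in 10 or more genes did not lie above by that much. With all 4 before-DSS libraries no class did.

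Of the 89, 10 members passed the filter on low counts and were tested among 137 rows. They held 88.9% of the member counts. The other 79, with 523 counts, were not tested.

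miR-6538, the most abundant member by total count, had counts of 23, 342, 33 and 32 in before-DSS libraries 1 to 4, 55, 31 and 23 in day 5 libraries 1, 3 and 4, and 102, 475, 613 and 151 in day 12 libraries 1 to 4. In CPM these were 756, 25831, 1603 and 1148 before DSS, 3077, 2489 and 1958 on day 5, and 2498, 25182, 24449 and 5414 on day 12. Before-DSS library 2 was as high as day 12 libraries 2 and 3, and the other 3 before-DSS libraries lay below every later library in these values. With the scaling factors of the test this did not hold. There before-DSS libraries 3 and 4 (1638 and 1563 CPM) lay above day 5 library 4 (1503 CPM). The miR-6240 row, the next in GC content among the tested members, had counts of 5, 75, 13 and 6 before DSS, 11, 7 and 2 on day 5, and 47, 50, 47 and 8 on day 12. Its highest level was also in before-DSS library 2, at 5665 CPM, and all 3 phases overlapped. It shares its seed CAAAGCA with miR-330-3p.

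miR-5126, the row of G and C only, had counts of 43, 83, 50 and 42 before DSS, 16, 1 and 4 on day 5, and 66, 97, 157 and 30 on day 12. In CPM these were 1414, 6269, 2430 and 1507 before DSS, 895, 80.3 and 340 on day 5, and 1616, 5142, 6262 and 1076 on day 12. All 3 day 5 libraries lay below every library of the other phases. The before-DSS and day 12 libraries overlapped.

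miR-3470b, whose letters occur in many genes, and miR-3470a, which had no sequence here, were highest in before-DSS library 2. miR-3470b had counts of 39, 130, 42 and 32 before DSS, 36, 15 and 17 on day 5, and 83, 48, 48 and 42 on day 12. miR-3470a had counts of 7, 102, 8 and 11 before DSS, 22, 6 and 7 on day 5, and 41, 30, 33 and 21 on day 12. Outside before-DSS library 2, miR-3470a stood at 230 to 395 CPM before DSS and 482 to 1590 CPM later. With the scaling factors of the test these ranges overlapped, at 292 to 537 and 368 to 1334 CPM. For miR-3470b the levels overlapped in CPM by library total as well. miR-3473a had counts of 6, 24, 25 and 8 before DSS, 4, 2 and 2 on day 5, and 36, 8, 16 and 2 on day 12. Its day 5 levels of 161 to 224 CPM overlapped with the before-DSS levels of 197 to 1813 CPM and lay inside the day 12 range of 71.7 to 882 CPM.

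Both tested members inside snoRNA and scaRNA genes follow, of which miR-1839-5p was even and miR-3535 was not. miR-1839-5p had counts of 30, 8, 14 and 29 before DSS, 13, 11 and 5 on day 5, and 42, 12, 17 and 17 on day 12. Its levels were 828 ± 218, 679 ± 233 and 738 ± 196 CPM (SD, n = 4, 3 and 4), which differed by less than the spread between libraries. miR-3535 had counts of 2, 6, 4 and 4 before DSS, 5, 2 and 18 on day 5, and 21, 5, 8 and 16 on day 12. Its day 5 level rested on library 4, at 1532 CPM against 280 and 161 in libraries 1 and 3.

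Both remaining tested members lie in introns on the same strand, miR-1981-5p in Marc2 and miR-5100 in Mief2. miR-1981-5p had counts of 19, 10, 8 and 11 before DSS, 8, 4 and 0 on day 5, and 35, 10, 5 and 11 on day 12, with overlapping phases. miR-5100 had counts of 3, 8, 3 and 3 before DSS, 3, 0 and 3 on day 5, and 17, 11, 20 and 5 on day 12. Its day 12 levels of 179 to 798 CPM overlapped with the day 5 levels of 0 to 255 CPM and, through library 2 at 604 CPM, with the before-DSS levels.

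**Figure D3:**
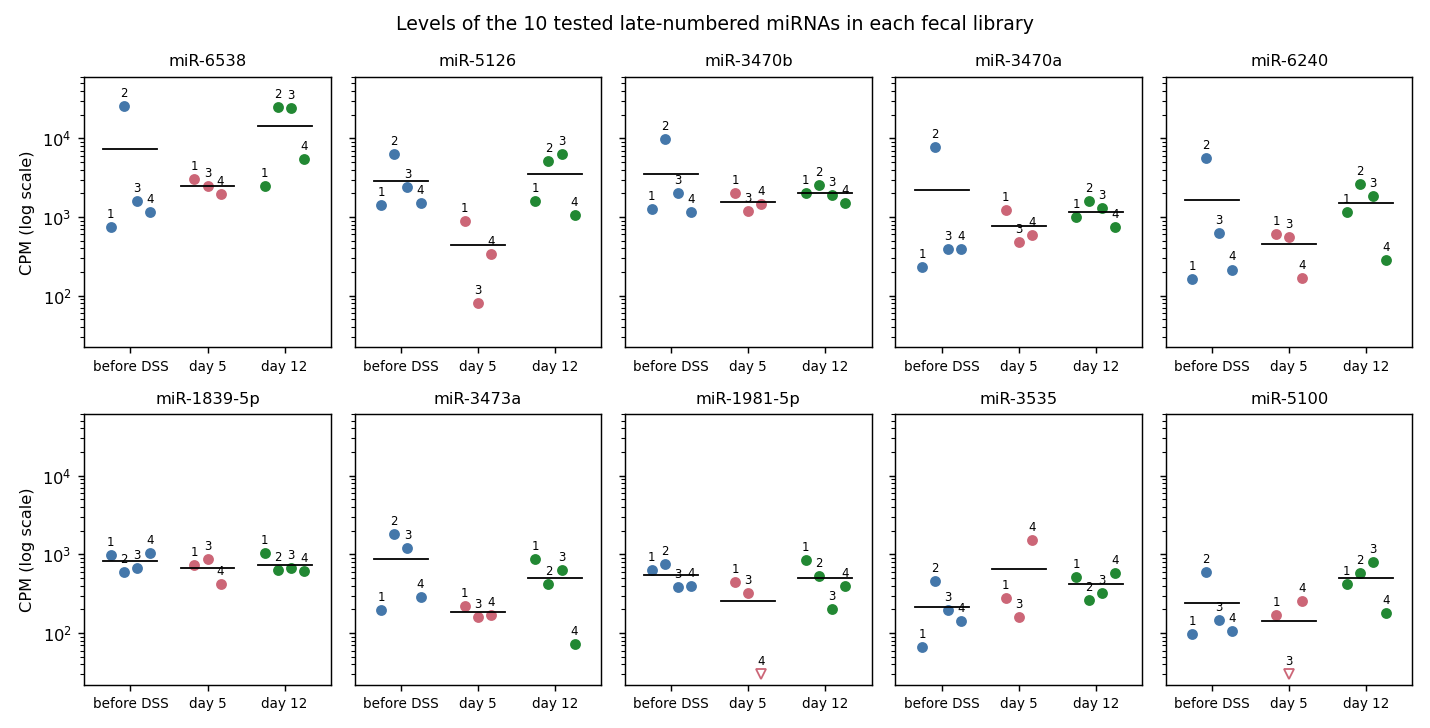
Levels in CPM on a log scale of the 10 tested late-numbered miRNAs in every library, by phase. Points carry the library number, black lines are phase means, and open triangles mark libraries with 0 counts. The points of before-DSS library 2 lie far above the other 3 for miR-6538, miR-3470a and miR-6240, and the 3 day 5 points of miR-5126 lie below all others.

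Acute colitis was examined first, by setting day 5 against the samples before DSS. None of the 10 passed the threshold of 0.05 in edgeR's quasi-likelihood test with Benjamini-Hochberg adjustment, and 0% of all 137 rows passed it. DESeq2 called 1 of the 10, miR-5126, and 3.7% of all rows, and limma-voom called 0 of the 10 and 0% of all rows. At an unadjusted p under 0.05 there were 3, all with lower values on day 5, where 24.8% of all rows were below that p. They were miR-5126 (log2 fold change -2.78 ± 0.72 SE, adjusted p = 0.0983), miR-3473a (-2.32 ± 0.88, adjusted p = 0.164) and miR-3470b (-1.28 ± 0.58, adjusted p = 0.198). By CPM of the library total the phases were apart for 1 of the 10, miR-5126, and for 21.2% of all rows, and with TMM factors, the scaling of the test (a trimmed mean over rows), for miR-5126 and miR-3473a and for 19% of all rows. Of the 10, 9 had lower and 1 had higher fitted values on day 5, with a median log2 fold change of -1.36 against 0.03 over all 137. Without before-DSS library 2 it was 6 lower and 4 higher, with a median of -0.21 against 0.12 over all rows. The exception was miR-3535 (1.35 ± 0.79), whose value was -0.040 without day 5 library 4. Without before-DSS library 2, miR-6538 stood at 0.71 in place of -1.52, miR-3470a at 0.83 in place of -1.41 and miR-6240 at 0.12 in place of -1.81, so the direction of these 3 rested on that library. In the same fit miR-3470b stood at -0.31 (adjusted p = 0.684) in place of -1.28, and miR-5100 at -0.12 in place of -0.82.

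Whether recovery brought back the starting levels was examined by setting day 12 against before DSS. None of the 10 passed by edgeR, where 6.57% of all rows did, and none did by DESeq2 or limma-voom, which called 8.89% and 5.84% of all rows. None had an unadjusted p under 0.05, against 16.8% of all rows, and none had phases that did not overlap, against 13.9% by library total and 11.7% with TMM factors. Values were higher for 5 and lower for 5, with a median log2 fold change of 0.02 against -0.02 over all 137. Without before-DSS library 2 it was 8 higher and 2 lower, with a median of 1.22 against 0.10 over all rows. The largest were miR-3535 (1.24 ± 0.72, adjusted p = 0.398), miR-5100 (1.17 ± 0.63, adjusted p = 0.355) and miR-6538 (1.10 ± 0.89, adjusted p = 0.597).

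A single library decided much of this comparison. Without before-DSS library 2, edgeR called miR-6538 (log2 fold change 3.35, adjusted p = 0.00607) and miR-3470a (1.68, adjusted p = 0.0454), both higher on day 12, and 10.2% of all rows, and miR-6240 stood at 2.01 (adjusted p = 0.0801). miR-3470a had been at -0.59 with that library. In an edgeR fit with column numbers as a replicate block, miR-6538 was called at 2.03 (adjusted p = 0.0399), with 10.9% of all rows called. That the column numbers pair the libraries was not shown. Over the 24 alternatives of its value, the adjusted p of miR-6538 ran from 0.00407 to 0.788 and it was called in 3. Leaving out both before-DSS library 2 and day 12 library 4, chosen after the data were seen, gave 4 calls among the 10 and 13.1% of all rows, these 2 with miR-5100 (2.11, adjusted p = 0.0359) and miR-6240 (2.32, adjusted p = 0.0230).

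**Figure D4:**
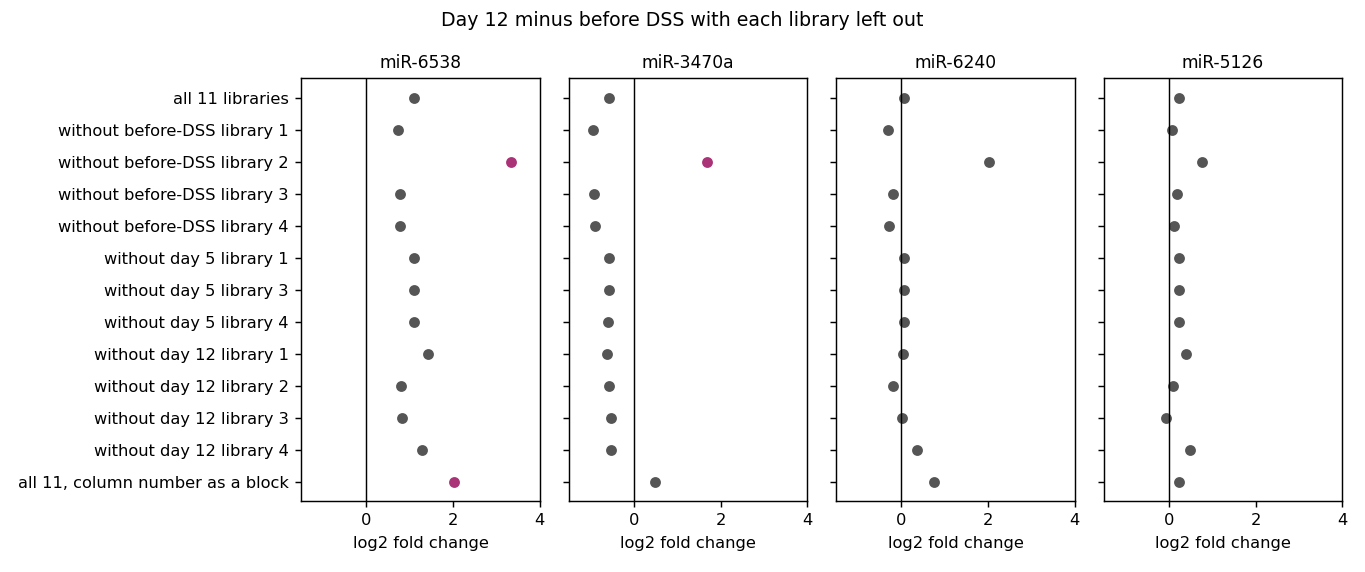
Log2 fold change of day 12 over before DSS for 4 late-numbered miRNAs with all 11 libraries, with each library left out, and with the column number as a block. Red points have an edgeR adjusted p under 0.05. The value of miR-6538 went from 1.10 to 3.35 and that of miR-3470a from -0.59 to 1.68 when before-DSS library 2 was left out.

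Before-DSS library 2 stood apart in particular rows. Of the 15 members with a mean of at least 100 CPM in the other 3 before-DSS libraries, 6 were over 5-fold higher in library 2: miR-3470a (22.8-fold), miR-6538 (22.1), miR-6240 (16.8), miR-3470b (6.59), miR-3068-3p (6.30) and miR-5100 (5.15). Of 168 other named rows at that level, 2 were, miR-149-5p and miR-690. The median ratio was 3.37 over the 15 and 1.45 over the 168. In the same library miR-1839-5p stood at 0.670 of the mean of the other 3. The TMM factor of that library was 1.25, where the other before-DSS libraries had 0.735 to 0.979. What sets this library apart was not tested.

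Recovery was then set against acute colitis, day 12 against day 5. This comparison shares its libraries with the comparisons above. edgeR called 1 of the 10 members, miR-5126, and 3.65% of all 137 rows, and DESeq2 and limma-voom each called the same member, with 8.89% and 4.38% of all rows called. miR-5126 rose by a log2 of 3.01 ± 0.73 (SE, adjusted p = 0.0411), with 4 of 4 day 12 libraries above all 3 day 5 libraries. Its day 5 value rests on 21 counts in all. The call held under 14 of 24 alternatives, with log2 fold changes of 2.53 to 4.30 and adjusted p of 5e-05 to 0.206. It was lost with library totals only (adjusted p = 0.119), in a fit of only these phases (0.0817), without the numbered rows (0.0577), and without any of before-DSS libraries 1, 3 and 4, day 5 libraries 3 and 4 and day 12 libraries 2 and 3 (0.0581 to 0.206).

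At an unadjusted p under 0.05 there were 3 members, all higher on day 12, against 19% of all rows. Beside miR-5126 they were miR-6538 (2.62 ± 1.06, adjusted p = 0.177), which was called without before-DSS library 2 (adjusted p = 0.0261, with 5.11% of all rows called), and miR-5100 (1.99 ± 0.77, adjusted p = 0.158). By CPM of the library total the phases were apart for 1 of the 10, miR-5126, and for 13.1% of all rows, and with TMM factors for miR-5126, miR-6538 and miR-5100 and for 16.1% of all rows. Values were higher on day 12 for 9 of the 10, with a median log2 fold change of 1.53 against -0.03 over all rows. The exception was miR-3535 (-0.10 ± 0.73), which stood at 1.28 without day 5 library 4. miR-6240 had 1.87 ± 1.03 (adjusted p = 0.300), miR-3473a 1.76 ± 0.87 (0.281) and miR-1839-5p 0.53 ± 0.52 (0.614). When all phases were tested together, miR-5126 passed (adjusted p = 0.0465), as did 8.03% of all rows.

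**Figure D5:**
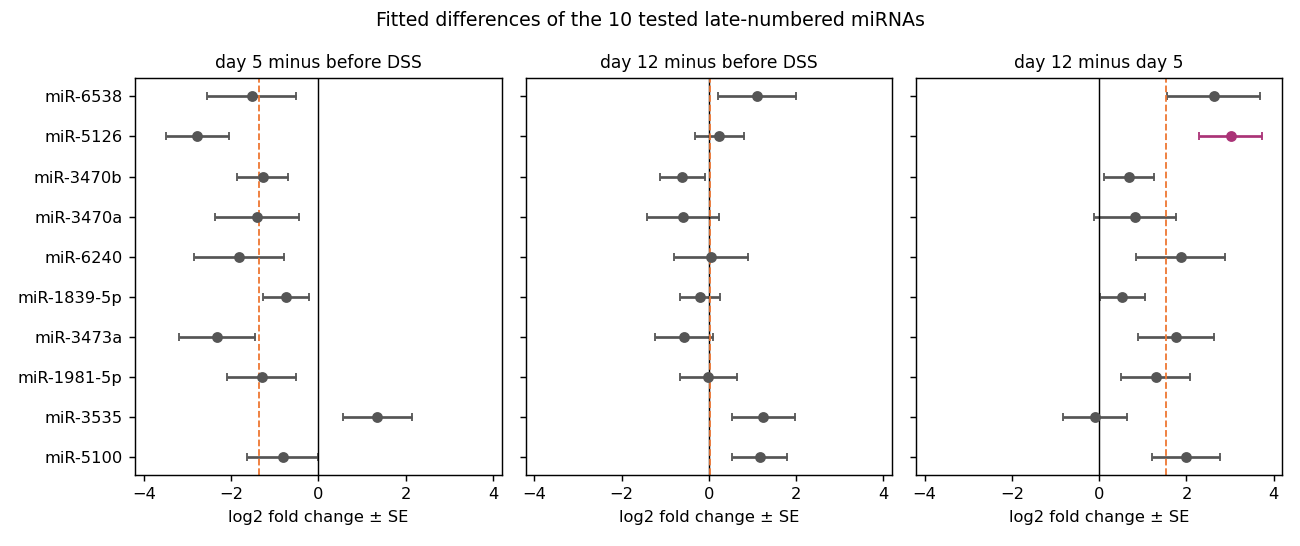
Log2 fold changes with standard errors of the 10 tested late-numbered miRNAs in the 3 comparisons, which share libraries. The red point is miR-5126 (3.01, adjusted p under 0.05), dashed lines are the medians of the 10 at -1.36 (-0.21 without before-DSS library 2), 0.02 (1.22) and 1.53 (1.57), and solid lines mark 0.

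With scaling by library totals only, the median over all rows of the log2 fold change shifted from 0.03 to 0.36 for day 5 against before DSS and from -0.03 to -0.33 for day 12 against day 5. Values of these comparisons are relative to the composition of the library. With that scaling miR-5126 still stood at 2.92 on day 12 against day 5.

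Members below the filter on low counts are given by their counts. miR-1298-5p, in an intron of the serotonin receptor gene Htr2c, had counts of 5, 3, 8 and 4 before DSS, 5, 3 and 5 on day 5, and 10, 12, 8 and 0 on day 12. The pooled ratio of day 12 over before DSS was 1.23 (exact 95% interval 0.674 to 2.28). miR-3068-3p had counts of 4, 9, 1 and 4 before DSS, 0, 2 and 0 on day 5, and 10, 3, 7 and 16 on day 12. Its pooled ratio of day 12 over day 5 was 6.72 (1.73 to 57.6), an interval that covers counting error only. miR-1198-5p, in an intron of Gripap1, had counts of 2, 0, 1 and 1 before DSS, 3, 0 and 1 on day 5, and 0, 7, 17 and 12 on day 12. It was high in day 12 libraries 2 to 4 and at 0 in library 1, and its pooled ratio of day 12 over before DSS was 7.36 (2.64 to 28.5).

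miR-1843a-5p had 1 to 7 counts in each of the 11 libraries, and 12, 5 and 21 in the 3 phases. miR-1843b-5p had 5, 4 and 14 counts, and its sequence was also found in Scarna3b, where miR-1843a lies, so their reads cannot be assigned with certainty. miR-3473b had counts of 5, 1, 4 and 2 before DSS, 0 in all 3 day 5 libraries, and 3, 3, 6 and 3 on day 12. The 0 of 42075 counts on day 5 allows up to 71.3 CPM, and its pooled day 12 level was 1.87-fold over that floor of 3 counts. miR-3473e also had 0 counts on day 5, with 8 before DSS and 5 on day 12, and miR-3473f had 7, 1 and 8. The miR-3473 rows were also summed, as were the miR-3470 rows, a choice made after the data were seen. By edgeR the miR-3473 sum fell by 2.66 on the log2 scale on day 5 against before DSS (adjusted p = 0.0418, with 1.47% of all rows called). It rose by 2.21 on day 12 against day 5 (adjusted p = 0.0426, with 4.41% called). A read counted in several of the summed rows would be counted repeatedly in the sum.

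The remaining members seen in every library of a phase were sparse. miR-1306-5p, in an exon of Dgcr8, whose protein is part of the Microprocessor that cuts miRNA hairpins, had 8, 2 and 3 counts in the 3 phases. miR-5121 had 1, 4 and 10 counts. miR-8117 had 4 and 3 counts before DSS and on day 5, and 0 of 112664 on day 12, which allows up to 26.6 CPM.

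Of 10 late numbers listed as also carried by human, 6 were in the table, as 9 rows. The list was not drawn from a full human catalogue, so other members may share a number with human and are not covered here. The listed rows held 104 counts, 2.21% of the member counts, of which 38 were before DSS, 18 on day 5 and 48 on day 12. Their pooled levels were 413, 428 and 426 CPM in the 3 phases. Most of these counts were miR-1298-5p, with 63.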

How the data were processed

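Small RNA was counted in 11 fecal libraries. Per the labels' protocols, feces were homogenized for RNA, a TruSeq kit gave the small RNA libraries, an Illumina HiSeq read them, and ACGT101-miR took out adapter dimers, junk reads, repeats and reads of ribosomal RNA, tRNA, snRNA and snoRNA. Aligner, miRNA release and genome build: not given in the sources used here. The protocols name fewer libraries than the 11 listed. The authors deposited raw read counts for 616 rows. The 11 other per-sample columns were not used.

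Day 12 columns match sample titles, and the others were assigned to their group only. P-values measure the spread between these libraries, which may be technical. Every pair within a phase differed by more than sampling noise (chi-square per degree of freedom at least 4.71).

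CPM divides a count by the sum of that library's column. Counts were tested with edgeR 4.0.16 in R 4.3.3 (quasi-likelihood F-test, TMM factors, default filter by expression, all 11 libraries in 1 fit), adjusted by Benjamini-Hochberg over 137 rows holding 94.1% to 98.2% of a library. DESeq2 1.42.0, limma-voom (limma 3.58.1), other scalings and filters, and leaving out each library were alternatives. Library totals ran from 11749 to 40835, and intervals cover counting error only.

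Deviations from the phase mean in libraries of the same column number had correlations of 0.15 to 0.51 between before DSS and day 12. They were 0.10 to 0.35 between day 5 and day 12, and -0.10 to 0.13 between before DSS and day 5. Libraries of different numbers were not compared, so these values do not show that the numbers pair the phases. The labels give no pairing, and the column number as a block was an alternative only.

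Sequences and positions are RefSeq's (GRCm38.p6) and were matched exactly to GENCODE vM21 transcripts. The text names every tested member, the 15 of highest total count and those with a count in every library of a phase. The members and lists were chosen with earlier results of these data known.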

Additional observations from a re-analysis of the deposited data

Results flagged for a closer look

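Within groups of 4 libraries, the highest or lowest value was compared with the next one as a share of the group's range (Dixon's test at its 95% critical value). Of 32 groups tested 8 passed. The nominal rate of 1 in 20 holds for independent normal values, but these rows share libraries and their CPM were not log-scaled. The 8 can therefore not be set against that rate. In 7 of the 8 the library was before-DSS library 2. It stood at 25831 CPM for miR-6538 (others 756 to 1603), 7704 CPM for miR-3470a (230 to 395), 9819 CPM for miR-3470b (1148 to 2041), 5665 CPM for miR-6240 (164 to 632), 680 CPM for miR-3068-3p (48.6 to 144) and 604 CPM for miR-5100 (98.6 to 146). Its share of counts held by late-numbered miRNAs, which includes these rows, was 6.27% (0.763% to 1.15%). The eighth was miR-1839-5p in day 12 library 1, at 1029 CPM where the others had 609 to 678.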

How the results depend on the processing

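Over 30 fold changes (10 members in 3 comparisons) and 717 alternative values, 649 kept direction and side of the threshold, 42 reversed, 16 passed it and 10 lost it. Causes were not tested unless stated.

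Called members on day 5 against before DSS went from 0 to 1 with no filter (89 members tested, 15 of 616 rows called) and with DESeq2. They also did with at least 10 CPM in at least 3 libraries (42 members, 5 of 412 rows) and with miR-3470 and miR-3473 rows summed. With the replicate block they went from 0 to 1 as well (miR-5126, adjusted p = 0.0366, 16 of 137 rows), where a pairing of these phases was not shown. On day 12 against before DSS they went from 0 to 1 with the replicate block, 4 without before-DSS library 2 and recovery library 4, and 0 to 2 leaving out 1 library. On day 12 against day 5 they went from 1 to 0 with library totals only, only these groups or no numbered rows, 2 with no filter (21 of 616 rows) or summed rows, 4 without both libraries (10 of 137 rows), and 0 to 2 leaving out 1 library. For any difference they went from 1 to 0 with library totals only, 3 with no filter, 2 with the replicate block or summed rows, 4 without both libraries, and 0 to 2 leaving out 1 library. The replicate block changed no other call.

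Members detected per library went to 14, 10 and 17.75 with at least 3 counts, and to 24.4 before DSS and 26.9 on day 12 at the smallest total, by construction. The day 5 share without miR-6538 was 0.663%.

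Reversed fold changes (log2) on day 5 against before DSS were, with the replicate block, miR-3470a 0.041 and miR-6538 0.37, and without both libraries miR-3470a 0.84, miR-6240 0.13 and miR-6538 0.72. Leaving out 1 library they ran from -2.09 to 0.83 for miR-3470a, -2.25 to 0.12 for miR-6240, -1.89 to 0.71 for miR-6538 and -0.040 to 1.81 for miR-3535. On day 12 against before DSS miR-1981-5p, at -0.01, was 0.0066 with RLE, 0.077 with TMMwsp, 0.11 with no filter, 0.10 with the CPM filter, 0.0065 with DESeq2, 0.11 with only these groups, 0.023 without numbered rows, 0.073 without the 5 most abundant miRNAs and 0.16 without both libraries. miR-3470a was 0.69 with limma-voom and 0.50 with the replicate block. Without both libraries miR-3470a was 1.74, miR-3470b 0.41 and miR-3473a 0.28. miR-6240 was -0.099 with library totals only. Leaving out 1 library they ran from -0.57 to 0.028 for miR-1839-5p, -0.61 to 0.30 for miR-1981-5p, -0.95 to 1.68 for miR-3470a, -0.84 to 0.40 for miR-3470b, -0.069 to 0.76 for miR-5126 and -0.32 to 2.01 for miR-6240. On day 12 against day 5 miR-3535 was 0.24 with limma-voom and 0.16 with the replicate block, and ran from -0.57 to 1.28 leaving out 1 library.

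At these depths 3 counts stand for up to 255.3 CPM, and edgeR's default filter left 79 of the 89 members out of the test.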

Other observations

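Both arms of a hairpin were in the table for 7 late numbers, counting letters apart. miR-1839 had 198 counts of the 5p and 3 of the 3p arm, miR-1843a 38 and 2, miR-1843b 23 and 8, miR-1298 63 and 6, and miR-1306 13 and 1. miR-3068 had 4 counts of the 5p and 56 of the 3p arm, and miR-3065 had 5 and 11.

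Among seeds shared with other named miRNAs, UCCCUUU of miR-7670-3p is that of miR-204-5p and miR-211-5p, and AGGGAGG of miR-1943-5p is that of miR-149-3p. Each of these late-numbered miRNAs had 1 count. miR-3064-5p and miR-3085-3p share the seed CUGGCUG, with 4 counts and 1 count.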
